A study of Mus musculus with 2 samples.

Results

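Collagen VI and fibril-associated collagens were followed in CD31- CD45- cells of mouse gonadal white adipose tissue (gWAT). The 6 genes were Col6a1, Col6a2 and Col6a3, which encode the chains of collagen VI, and Col12a1, Col14a1 and Col16a1, which encode fibril-associated collagens. They were chosen by symbol from the 31054 genes of the count tables, and all 6 were counted in both libraries. Cells came from 18-month-old male p16-CreERT2/R26-LSL-tdTomato mice given tamoxifen, a genotype that both groups share. A Cre recombinase expressed from the p16 (Cdkn2a) locus removes a stop sequence before tdTomato in these mice, so tdTomato marks cells that expressed p16 when tamoxifen was given. Sorted Tom+ cells made 1 droplet library and sorted Tom- cells made 1 library, and the number of mice behind each is not named in the labels. With 1 library per group there is no test between them: the values compare 2 libraries, and the 95% intervals given cover counting error only.

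Collagen VI is built from 3 different chains that join before secretion and form beaded microfilaments around cells and fat lobules. In adipose tissue it is a main part of the matrix around adipocytes, and a fragment cut from the end of the alpha 3 chain is known as endotrophin. Collagens XII, XIV and XVI belong to the fibril-associated collagens with interrupted triple helices (FACITs), which sit on the surface of fibrils made of collagen I or other fibrillar collagens and link them to the surrounding matrix.

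In the GRCm38 build, Col6a1 (ENSMUSG00000001119) covers chr10:76708792-76726168 and Col6a2 (ENSMUSG00000020241) covers chr10:76595762-76623630, both on the minus strand and 85161 bases apart. Col6a3 (ENSMUSG00000048126) lies on another chromosome, at chr1:90765923-90843971 on the minus strand. Col12a1 (ENSMUSG00000032332) is at chr9:79598991-79718831 on the minus strand, Col14a1 (ENSMUSG00000022371) at chr15:55307750-55520803 on the plus strand and Col16a1 (ENSMUSG00000040690) at chr4:130047840-130099283 on the plus strand. Opposite-strand genes that were counted as genes of their own overlap Col12a1 and Col14a1. On the same strand, Gm36970, which was not counted, overlaps Col6a3. The bases just before the annotated start of the 3 collagen VI genes are shown because Col6a3 differed between the libraries while Col6a1 and Col6a2 differed less. They are from RefSeq (GRCm38.p6, minus strand), for Col6a1 chr10:76726169-76726294, for Col6a2 chr10:76623631-76623880 and for Col6a3 chr1:90843972-90844221, and capitals mark matches to GGGCGG or CCCTCCC on either strand.
Col6a1: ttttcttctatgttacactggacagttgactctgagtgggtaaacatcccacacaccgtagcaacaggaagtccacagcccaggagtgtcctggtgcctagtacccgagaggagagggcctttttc
Col6a2: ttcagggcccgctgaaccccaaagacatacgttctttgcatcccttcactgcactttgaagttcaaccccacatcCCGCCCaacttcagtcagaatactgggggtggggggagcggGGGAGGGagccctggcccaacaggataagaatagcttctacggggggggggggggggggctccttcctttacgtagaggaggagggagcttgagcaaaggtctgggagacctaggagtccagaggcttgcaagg
Col6a3: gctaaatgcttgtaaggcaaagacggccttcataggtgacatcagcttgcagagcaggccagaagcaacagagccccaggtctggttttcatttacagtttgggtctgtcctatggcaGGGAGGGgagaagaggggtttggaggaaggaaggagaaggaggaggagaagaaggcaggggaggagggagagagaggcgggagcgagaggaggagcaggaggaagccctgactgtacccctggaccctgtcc

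The window before Col6a2 holds 1 match to GGGCGG and 1 to CCCTCCC, and the window before Col6a3 holds 1 match to CCCTCCC. The motif TATAAA, the motif CCAAT and the motif TGANTCA, also searched on both strands, match in none of the 3 windows. The 126 bases shown for Col6a1 hold no match to any of the 5 motifs. For Col6a1 the 250 bases before the RefSeq start reach into the gene as annotated here. Only the 126 of them furthest from the RefSeq start, which lie outside the gene, were searched. The Col6a1 result is thus not like for like with the 250 bases of Col6a2 and Col6a3. Of 32851 promoters, 32.7% hold GGGCGG in the 250 bases before the start, while 19.7% hold CCCTCCC, 12.4% hold TATAAA, 33.8% hold CCAAT and 6.75% hold TGANTCA. In the first 126 of these bases, those furthest from the start, the shares run from 3.24% for TGANTCA to 16.9% for CCAAT. These matches are a description of letters, and the matches shown do not overlap each other.

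Of 5566 Tom+ and 11838 Tom- barcodes, 3524 and 6717 had over 1000 and under 7000 genes and under 8% mitochondrial UMIs. A UMI, or unique molecular identifier, marks 1 captured RNA molecule, and levels are given as counts per 1000000 UMIs of a group of cells (CPM). Mesothelial cells, the lining cells of the fat pad, were called from at least 10 UMIs summed over Msln, Upk3b, Krt19, Lrrn4 and Upk1b, which gave 250 Tom+ and 1887 Tom- cells with 5322983 and 32355904 UMIs. Stromal cells had under 5 of these UMIs and numbered 3263 and 4800, with 51104409 and 57883866 UMIs, while 11 and 30 cells lay between the limits. The 5 mesothelial markers summed to 4844 and 4796 CPM in the mesothelial class against 6.63 and 27.3 in the stromal class. This difference follows from the rule, since these genes set the classes. The 7 stromal markers (Pdgfra and others) summed to 5129 and 4832 in the stromal class and to 937 and 978 in the mesothelial class. Cd34, 1 of these 7, was higher in mesothelial cells, at 435 and 417 CPM against 294 and 292 in stromal cells. tdTomato stood at 211 CPM in Tom+ and 13.1 in Tom- stromal cells. Cdkn2a was lower in Tom+ than in Tom- stromal cells, at 4.66 (4.08 to 5.29) against 5.79 (5.18 to 6.44), and higher in Tom+ mesothelial cells, at 12.4 (9.59 to 15.8) against 8.47 (7.495 to 9.53).

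Features of the libraries touch the results below. The libraries share 2224 barcodes, of which 9 passed the filter in both, 497 passed in Tom+ only (median 27932 UMIs against 663 in Tom-) and 275 in Tom- only. Shared barcodes make up 404 of the Tom+ stromal, 100 of the Tom+ mesothelial, 75 of the Tom- stromal and 207 of the Tom- mesothelial cells. Values without them are given below for some genes. The stromal class also held 3 immune clusters despite the CD45- gate, 1 led by immunoglobulin genes, 1 by mast cell and macrophage genes (Mcpt4, C1qa) and 1 by T cell genes (Cd3g). They were 196 Tom+ cells (6.01%) and 97 Tom- cells (2.02%), and the 7 B and plasma cell markers summed to 59905 CPM in Tom+ against 14536 in Tom- stromal cells.

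Within the stromal class, the 3 collagen VI chains differed in how they compared between libraries: Col6a3 was higher in Tom+, while Col6a1 and Col6a2 were within 1.13-fold. Col6a1, which encodes the alpha 1 chain, was at 949 CPM (941 to 958) in Tom+ and 892 (885 to 900.2) in Tom-. Col6a2, for the alpha 2 chain, was at 674 (667 to 681) in Tom+ and 595 (589 to 602) in Tom-. Both short chains thus lay slightly higher in Tom+, with log2 ratios of 0.09 (0.07 to 0.11) and 0.18 (0.16 to 0.20) that compare with a median of 0.07 over all 9778 genes tested. Col6a3, for the longer alpha 3 chain, was at 577 (571 to 584) in Tom+ and 342 (338 to 347) in Tom-. Its log2 ratio of 0.75 (0.73 to 0.78), a 1.69-fold difference, exceeded that of 98.2% of all genes tested. Without the 3 immune clusters the log2 ratios were 0.18 for Col6a1, 0.27 for Col6a2 and 0.84 for Col6a3, and without shared barcodes Col6a3 stood at 0.76.

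Among the FACIT genes, Col14a1 was higher and Col12a1 and Col16a1 were lower in Tom+ stromal cells. Col14a1, whose collagen XIV interacts with decorin on the fibril surface, was at 239 CPM (235 to 243) in Tom+ and 195 (191 to 198) in Tom-, a log2 ratio of 0.30 (0.26 to 0.33). Col12a1, whose collagen XII is abundant in tissues under tension, was at 10.9 (9.99 to 11.8) in Tom+ and 15.03 (14.05 to 16.1) in Tom-, a log2 ratio of -0.47 (-0.62 to -0.31). Col16a1, for collagen XVI, was at 34.8 (33.2 to 36.4) in Tom+ and 42.6 (40.9 to 44.3) in Tom-, a log2 ratio of -0.29 (-0.38 to -0.20). The intervals of the libraries were apart for each of these genes, but the share of all genes with intervals apart was not computed. With each stromal cluster described below weighted equally, CPM was averaged over the clusters before the ratio was taken. This gave a log2 ratio of 0.41 for Col14a1, 0.02 for Col12a1 and -0.005 for Col16a1. With shared barcodes left out, the log2 ratio moved to 0.37 for Col14a1 and to -0.19 for Col16a1. With a log2 ratio of 0.5 in either direction as the limit, 1 of the 6 genes, Col6a3, was past it, beside 10.7% of all 9778 genes tested. The median log2 ratio of the 6 was 0.13.

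**Figure D1:**
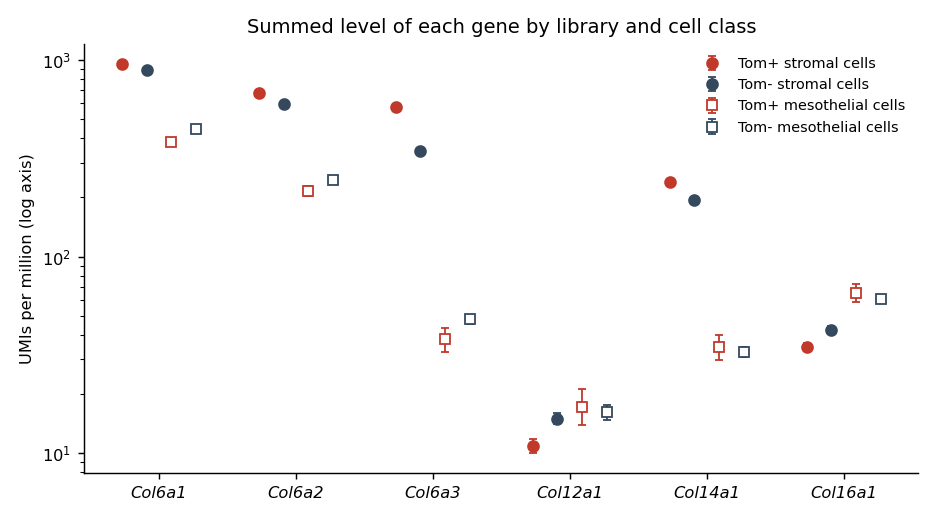
CPM (log axis) of each gene summed over the cells of each class in the Tom+ and Tom- libraries, with bars for 95% exact Poisson intervals. In stromal cells Col6a3 differs most between the libraries (577 against 342), and in mesothelial cells Col6a3 and Col14a1 lie furthest below the stromal cells.

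In mesothelial cells none of the 6 genes differed past the same limit, and the 3 collagen VI chains were slightly lower in Tom+. Col6a1 was at 383 CPM (367 to 400.4) in Tom+ and 444 (437 to 451) in Tom-, a log2 ratio of -0.21 (-0.28 to -0.14). Col6a2 was at 215 (203 to 228) in Tom+ and 245 (240 to 251) in Tom-, a log2 ratio of -0.19 (-0.28 to -0.10). Both chains therefore pointed the other way from the stromal class. The 5 other immune markers summed to 373 CPM in Tom+ and 15.6 in Tom- mesothelial cells (Lyz2 275 and 10.8), and without cells that held markers of other types the log2 ratios were -0.18 for Col6a1, -0.16 for Col6a2 and -0.36 for Col6a3. The part of immune RNA in the result was not tested. Col6a3 was at 37.9 (32.9 to 43.6) in Tom+ and 47.9 (45.5 to 50.4) in Tom-, a log2 ratio of -0.34 (-0.55 to -0.12) that moved to -0.11 when mesothelial cells with 3 or more UMIs of stromal genes were left out. The intervals of the log2 ratio included 0 for Col12a1 (0.10, from -0.24 to 0.42), Col14a1 (0.09, from -0.15 to 0.31) and Col16a1 (0.10, from -0.07 to 0.27). That 0 of 6 count stands beside 4.8% of 10014 genes past the limit (3.03% higher and 1.78% lower). Col14a1 moved most when shared barcodes were left out: with that, which kept 150 Tom+ and 1680 Tom- mesothelial cells, its log2 ratio was -0.94 and the count was 1.

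As a share of UMIs, 4 of the 6 genes were lower in mesothelial than in stromal cells in both libraries, by over 2-fold. For Col6a1 in Tom- the interval reached under 2-fold. Col6a3 stood furthest apart among the 6, with a log2 ratio of mesothelial over stromal of -3.93 (-4.13 to -3.73) for Tom+ and -2.84 (-2.91 to -2.76) for Tom-. Col14a1 followed with -2.78 (-3.00 to -2.57) and -2.57 (-2.67 to -2.48). Col6a2 was at -1.65 (-1.73 to -1.56) and -1.28 (-1.31 to -1.24), and Col6a1 at -1.31 (-1.37 to -1.24) and -1.01 (-1.03 to -0.98). Both short chains thus differed less between the classes than the alpha 3 chain. Col16a1 went the other way, at 0.91 (0.74 to 1.08) in Tom+, or 0.36 with cells thinned to 5000 UMIs, and 0.52 (0.43 to 0.60) in Tom-. Col12a1 was also higher in Tom+, at 0.67 (0.33 to 0.99). In Tom- its interval included 0, at 0.10 (-0.06 to 0.26), and 7 of 12 alternatives kept the sign. In each library 4 of 6 genes were lower past a log2 of 1, beside 10.1% of 10240 genes in Tom+ and 9.22% of 10019 genes in Tom- (23.2% and 21.1% in either direction). The 6 genes were chosen with earlier results of these data known, so this count is not a test. Without shared barcodes Col14a1 moved to -4.04 for Tom+ and -2.74 for Tom-. Leaving these barcodes out also moved Col6a1 to -1.46 and Col6a2 to -1.74 in Tom+.

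The share of cells with a UMI was compared after each cell was thinned to 5000 UMIs, which left 3144 Tom+ and 4547 Tom- stromal cells and 250 and 1856 mesothelial cells (119, 253, 0 and 31 shallower cells were left out). Before thinning the median was 14235 and 11270 UMIs in stromal and 18601.5 and 14753 in mesothelial cells. Cells with at least 3 immune UMIs in the stromal class, 180 in Tom+ (median 35467.5 UMIs before thinning) and 78 in Tom- (28017.5), are set beside both classes. They also carry stromal RNA, with Dpt at 180 CPM in the immunoglobulin cluster 10 and 843 in the T cell cluster 12, against 59.4 and 62.8 in Tom+ and Tom- mesothelial cells. No class free of stromal RNA was found, so the share that free RNA would give is unknown and no share is read as background. These cells carried a Col6a1 UMI in 41.1% (33.8 to 48.7) and 50.0% (38.5 to 61.5) of cases. Col6a1 was found in 92.3% (91.3 to 93.2) of Tom+ and 92.8% (92.0 to 93.5) of Tom- stromal cells, and in 78.4% (72.8 to 83.3) and 79.4% (77.5 to 81.2) of mesothelial cells. Col6a2 was found in 83.3% and 83.4% of stromal and 60.0% and 62.2% of mesothelial cells, against 37.2% and 39.7% of the cells with immune UMIs. Both short chains were thus found in more mesothelial cells than cells with immune UMIs. Col6a3 was found in 79.5% (78.0 to 80.9) of Tom+ and 66.8% (65.4 to 68.2) of Tom- stromal cells, but in 14.4% (10.3 to 19.4) and 17.2% (15.5 to 19.04) of mesothelial cells, against the 30.0% (23.4 to 37.3) and 30.8% (20.8 to 42.2) of cells with immune UMIs. Whether the mesothelial Col6a3 UMIs come from these cells' own RNA was not tested. Before thinning the mesothelial shares were 42.4% and 38.1%, from deeper cells.

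The FACIT genes were found in fewer cells. Col14a1 was found in 44.9% (43.1 to 46.6) of Tom+ and 34.6% (33.3 to 36.0) of Tom- stromal cells, and in 9.60% and 10.6% of mesothelial cells, where 13.3% and 20.5% of the cells with immune UMIs had it. The mesothelial share of Col14a1 was thus below that of stromal cells in both libraries. Col12a1 was found in 3.85% and 4.99% of stromal, 6.80% and 6.03% of mesothelial and 1.11% and 2.56% of immune-marked cells. Col16a1 was found in 16.4% (15.2 to 17.8) and 17.7% (16.6 to 18.9) of stromal cells, in 50 of 250 Tom+ (15.2% to 25.5%) and 25.3% (23.4 to 27.4) of Tom- mesothelial cells, and in 6.67% (3.49 to 11.4) and 16.7% (9.18 to 26.8) of immune-marked cells. In Tom- the intervals of Col16a1 overlapped between stromal and immune-marked cells, and so did those of Col12a1 in both libraries. All 3 collagen VI chains were found together in 68.6% (67.0 to 70.3) of Tom+ and 56.4% (54.9 to 57.8) of Tom- stromal cells, and in 6.40% (3.70 to 10.2) and 10.2% (8.84 to 11.6) of mesothelial cells.

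**Figure D2:**
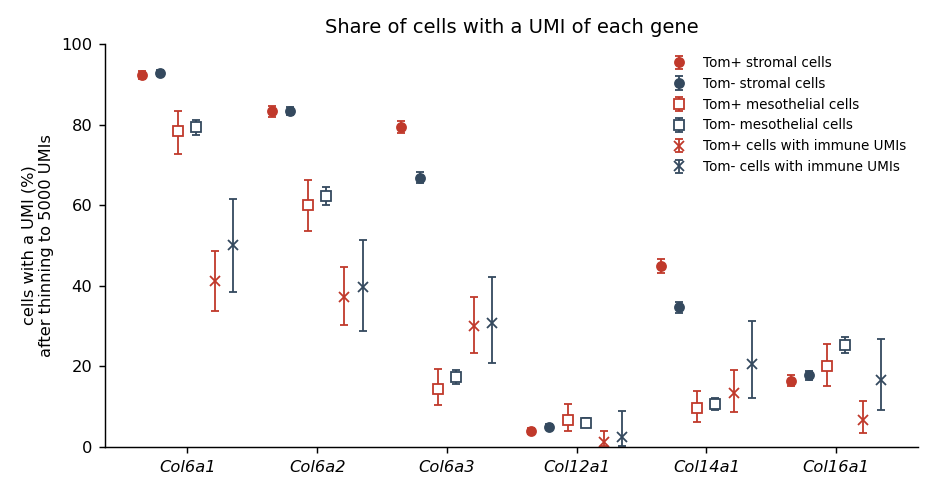
Percentage of cells with at least 1 UMI of each gene after thinning to 5000 UMIs, for stromal cells, mesothelial cells and stromal-class cells with at least 3 immune UMIs, with bars for exact 95% binomial intervals. Col6a3 is found in 79.5% of Tom+ and 66.8% of Tom- stromal cells and in mesothelial cells less often than in the cells with immune UMIs.

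The balance between chain RNAs was described by dividing Col6a2 or Col6a3 UMIs by Col6a1 UMIs, a ratio that is compared here between cell groups only and does not count chains. Col6a2 per Col6a1 was 0.710 (0.700 to 0.720) in Tom+ and 0.667 (0.658 to 0.676) in Tom- stromal cells and 0.561 (0.522 to 0.604) and 0.552 (0.537 to 0.568) in mesothelial cells. Col6a3 per Col6a1 was 0.608 (0.599 to 0.617) in Tom+ and 0.384 (0.377 to 0.390) in Tom- stromal cells. In mesothelial cells it was 0.0990 (0.0852 to 0.114) in Tom+ and 0.108 (0.102 to 0.114) in Tom-, with overlapping intervals. The groups thus differed more in Col6a3 than in Col6a2 per Col6a1. The 3 immune clusters had 0.628 (0.580 to 0.680) in Tom+ and 0.402 (0.341 to 0.472) in Tom-, intervals that held the value of all stromal cells of the same library. The mesothelial ratio lay far below that of the immune clusters in both libraries. The profile of free RNA was not measured, and its part in the mesothelial levels was not tested.

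**Figure D3:**
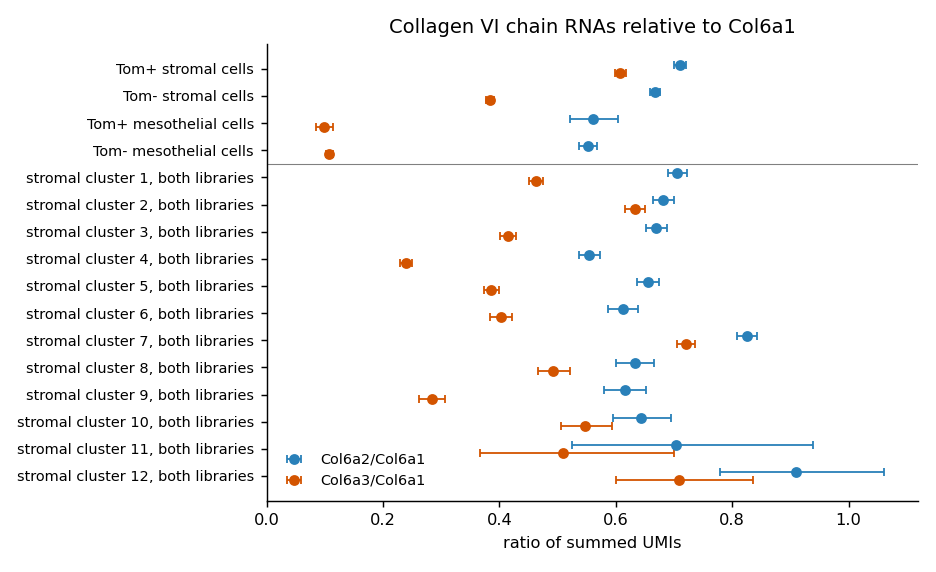
Summed UMIs of Col6a2 (blue) and Col6a3 (orange) divided by those of Col6a1 in each library and class and, below the line, in the 12 stromal clusters with both libraries joined, with 95% intervals for counting error. The Col6a3 ratio runs from 0.0990 in Tom+ mesothelial cells to 0.720 in stromal cluster 7, while the Col6a2 ratio runs from 0.552 to 0.909.

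Stromal cells of both libraries were then clustered together without collagen genes, which gave 12 clusters that are called here by number and leading genes. Clusters 2, 5 and 7 held 59.7% of the Tom+ but 14.7% of the Tom- stromal cells, and clusters 1, 3, 4 and 6 held 26.9% and 72.1%. The libraries thus filled these clusters unequally. Cluster 7, led by Gsc, Aspn and Cd36, had the highest level of all 3 collagen VI chains, 1844 CPM (1818 to 1871) of Col6a1, 1522 (1498 to 1546) of Col6a2 and 1328 (1306 to 1351) of Col6a3. Both libraries had their highest Col6a1, Col6a2 and Col6a3 there. Since the libraries differ in Col6a3 and fill the clusters unequally, the order of the other clusters is given within each library. In Tom+, cluster 1 (Hsd11b1, Thbd) had 668 CPM (642 to 696) of Col6a3 and cluster 2 (Rab3b, Edn1) had 542 (530 to 554), while cluster 5 (Ptgds and the mural marker Myh11) had 444 (430 to 459) and cluster 3 (G0s2, Txnip) 439 (418 to 461), which overlapped. In Tom- the intervals of cluster 2, with 410.05 (389 to 432), cluster 1, with 403 (392.3 to 413), and cluster 5, with 391 (370.4 to 413), overlapped each other. Clusters 4, 6 and 8 had 264 to 305 CPM in Tom+ and 206 to 232 in Tom-. The small clusters 9 and 12 had 463 (404 to 529) and 608 (524 to 702) in Tom+ and 261 and 251 in Tom-. Cluster 7 also had the highest sum of committed preadipocyte markers among the 12 clusters, 4711 CPM, with Fabp4 at 2567.

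The FACIT genes peaked in other clusters. Col14a1 was at 879 CPM (858 to 901) in cluster 8, which had the highest Dpp4 (333) and Pi16 (1609), markers of interstitial progenitors. Cluster 6 (Nptx2, Sfrp4, Has1) followed with 420.3 CPM (408 to 433), then cluster 4 (Cpxm2, Mfap4) with 282 (271 to 292) and cluster 2 with 229 (222 to 236), and the other 8 had 154 or less. Col16a1 was highest in cluster 4 at 86.2 CPM (80.4 to 92.3), ahead of cluster 9 with 64.8 (55.7 to 75.04) and cluster 5 with 48.9 (44.9 to 53.2). Cluster 9 was led by Ccl21a and held the granulocyte genes Elane, Ctsg and Mpo among its leading genes. Its 7 stromal markers summed to 1361 CPM, against 4026 or more in clusters 1 to 8 and 1473 in the immunoglobulin cluster 10. Endothelial markers summed to 122 CPM there, the highest of the 12. The Col12a1 level of cluster 9, 42.5 CPM (35.2 to 50.9), was the highest of the 12, ahead of 31.4 (27.9 to 35.1) for cluster 4 and 26.5 (23.3 to 29.9) for cluster 6, while cluster 3 had 1.88 (1.23 to 2.75). Cluster 12 had 0 Col12a1 UMIs. Each FACIT gene thus had its own pattern over the clusters, and none shared the peak of the collagen VI chains in cluster 7.

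**Figure D4:**
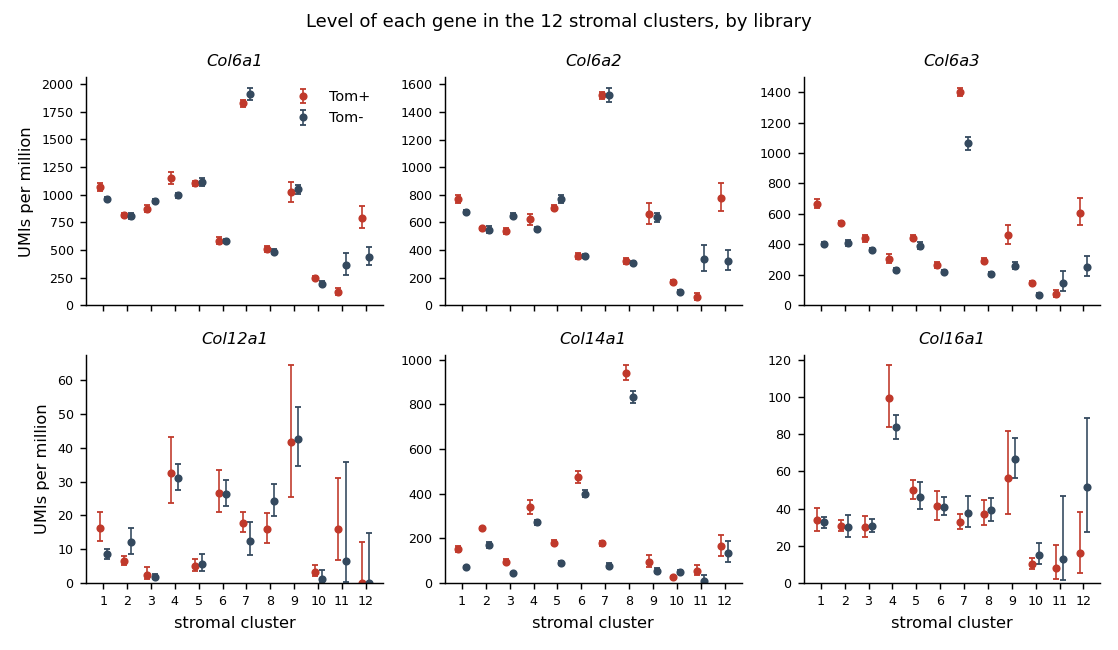
CPM of each gene in the 12 stromal clusters, in Tom+ (red) and Tom- (dark blue), with 95% exact Poisson intervals and an axis from 0 in each panel. The collagen VI chains peak in cluster 7 and Col14a1 in cluster 8, and Col6a3 is higher in Tom+ in each of clusters 1 to 10.

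Within clusters, Col6a3 and Col14a1 differed between the libraries and the other 4 genes did so less regularly. Among the 10 clusters with at least 30 cells of each library, Col6a3 was higher in Tom+ in 10, each with an interval above 0, where 5.17% of 9778 genes were higher in 10 of 10. Its log2 ratio ran from 0.18 (0.09 to 0.28) in cluster 5 to 0.83 (0.60 to 1.05) in cluster 9 and 1.13 (0.86 to 1.41) in the immunoglobulin cluster 10, where the level was 149 in Tom+ and 68.2 in Tom-. Cluster 9, low in stromal markers, held 36 Tom+ cells. That cells led by immunoglobulin genes showed the difference too is given as measured, and the part of free RNA in the other clusters was not tested. In cluster 7 Col6a3 was at 1403 CPM in Tom+ and 1064 in Tom-, a log2 ratio of 0.40 (0.33 to 0.46). With each cluster weighted equally the log2 ratio of Col6a3 was 0.46, under the limit of 0.5 that it passed over all stromal cells.

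Col14a1 was higher in Tom+ in 9 of the 10 clusters, beside 16.1% of genes higher in at least 9, and its lower value was in the immunoglobulin cluster (-0.82, from -1.22 to -0.42). On the log2 scale 4 clusters stood past 1: cluster 1 (1.14, from 0.99 to 1.29), cluster 3 (1.14, from 0.94 to 1.35), cluster 5 (1.04, from 0.86 to 1.23) and cluster 7 (1.21, from 0.98 to 1.45). The 2 clusters where Col14a1 was most abundant had the smallest of the 9 differences, cluster 8 with 0.18 (0.11 to 0.25) and cluster 6 with 0.25 (0.15 to 0.34). With clusters weighted equally Col14a1 stood at 0.41, above the 0.30 over all stromal cells. Clusters with high levels weigh most in that average of CPM, and the median of the 10 log2 ratios was 0.66. Col6a1 was higher in 6 of 10 clusters, from -0.12 to 0.34, and Col6a2 in 7 of 10, from -0.27 to 0.78. The share of all genes higher in at least 6 or 7 clusters was not computed, while 28.8% were higher in at least 8. With clusters weighted equally the log2 ratio was 0.025 for Col6a1 and 0.026 for Col6a2. At the finer Leiden resolution of 1.0, with 13 clusters compared, Col6a1 was higher in 30.8% of clusters and Col6a2 in 38.5%. Col6a3 and Col14a1 were each higher in 92.3% of them. For Col16a1 the interval of every cluster included 0, and its log2 ratio moved from -0.29 over all stromal cells to -0.005 with equal weights. Col12a1 likewise moved from -0.47 to 0.02, with single clusters between -0.88 (cluster 2) and 1.60 (cluster 10, on 17 and 2 UMIs). The Col6a3 to Col6a1 ratio was higher in Tom+ in 10 of 10 clusters, by 1.14 to 1.82 times, and the Col6a2 to Col6a1 ratio in 6 of 10.

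**Figure D5:**
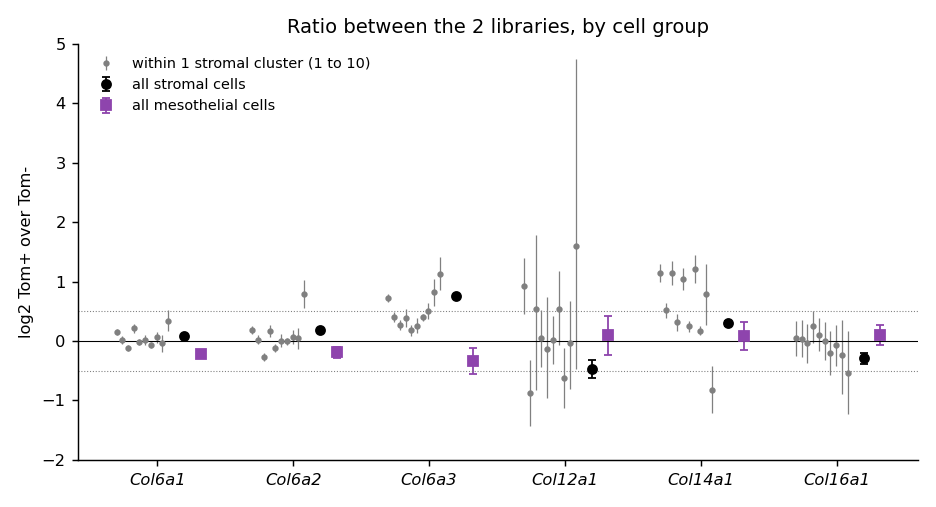
Log2 ratio of Tom+ over Tom- for each gene within stromal clusters 1 to 10 (grey, from left to right), over all stromal cells (black) and over all mesothelial cells (purple), with 95% counting intervals and dotted lines at 0.5 in each direction. Col6a3 lies above 0 in all 10 clusters and below 0 in mesothelial cells, while Col12a1 and Col16a1 lie below 0 over all stromal cells but around 0 across clusters.

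Across stromal cells thinned to 5000 UMIs, the collagen VI chains varied together, while their correlations with the FACIT genes were weak. Pearson's r of log values between Col6a1 and Col6a2 was 0.59 in 3144 Tom+ and 0.50 in 4547 Tom- cells, between Col6a2 and Col6a3 0.51 and 0.36, and between Col6a1 and Col6a3 0.48 and 0.36. Cells of 1 library share their preparation, so these are descriptions. The 3 immune clusters, with Col6a1 at 264 CPM in Tom+ and 233 in Tom-, were included, and no r without them is given. Between a collagen VI chain and a FACIT gene r ran from -0.12 to 0.06. After thinning Col12a1 was found in only 3.85% of Tom+ and 4.99% of Tom- stromal cells, and Col16a1 in 16.4% and 17.7%. Such sparse counts keep r low, so no lack of shared variation is read from it for these genes. In mesothelial cells r between Col6a1 and Col6a2 was 0.25 (250 cells) and 0.27 (1856 cells), and between Col6a1 and Col6a3 0.03 and 0.06.

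Ranking 9710 genes by the lower of the 2 libraries' r over all 3263 and 4800 stromal cells gave each gene its closest neighbours. For Col6a1 these were Col6a2 (0.65), Sparc, which encodes a collagen-binding matrix protein (0.56), and the fibrillar collagens Col3a1, Col1a2 and Col1a1 (0.54, 0.54 and 0.52). For Col6a2 they were Col6a1, Col3a1 (0.53), Sparc (0.51), Col6a3 (0.49) and Col4a2 (0.47). For Col6a3 they were Col3a1 (0.53), the basement membrane collagens Col4a1 (0.52) and Col4a2 (0.51), Col6a1 (0.50) and Col6a2 (0.49). Col14a1 had other neighbours, Fndc1 (0.48), Fn1 (0.47), Cd55 (0.47), Prss23 (0.46) and Sema3c (0.46). For Col12a1 the closest was Tagln at 0.17 and for Col16a1 it was Col1a2 at 0.20, weak values in sparse counts. UMIs per cell were scaled but not thinned here, and cell depth is shared by all genes of a cell. The cells of the immune clusters were included in this ranking too.

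Of the other collagen VI and FACIT chain genes, 2 of 9 passed the filter at a mean of 5 CPM, Col6a5 and Col6a6, which encode long chains that can take the place of alpha 3. Col6a5 was at 578 CPM in Tom+ and 702 in Tom- over all stromal cells, a log2 ratio of -0.28 (-0.30 to -0.26). Within clusters it was higher in Tom+ in 5 of 10, from -0.25 to 0.52, and with each cluster weighted equally its log2 ratio was 0.045. Col6a6 was at 133 and 98.0, a log2 ratio of 0.44 (0.39 to 0.49), and was higher in Tom+ in 10 of 10 clusters, with 0.36 at equal weights. With both libraries joined, Col6a5 was highest in cluster 4, at 1587 (1562 to 1612), where the Col6a3 to Col6a1 ratio was lowest at 0.239 (0.228 to 0.250). It was at 228 (218 to 237) in cluster 7, where that ratio was 0.720 (0.704 to 0.736). The clusters lowest in Col6a5, 11 and 8 at 84.7 and 94.5, had ratios of 0.508 and 0.493. Cluster 12, with Col6a5 at 591, had a ratio of 0.708. Whether Col6a5 and this ratio are linked was not tested. Col6a5 and Col6a6 were lower in mesothelial cells, with mesothelial over stromal log2 ratios of -2.48 in Tom+ and -2.499 in Tom- for Col6a5, and of -2.74 and -2.17 for Col6a6.

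Among 11 receptor genes, 8 passed the filter in stromal cells, and 1 was past a log2 ratio of 0.5 between the libraries, a share near the 10.7% of all genes tested. This was Itga1, for the integrin alpha 1 subunit that binds collagens, at 7.63 CPM in Tom+ and 14.9 in Tom- (-0.96, from -1.14 to -0.79). Antxr1, an anthrax toxin receptor that binds collagen VI, was at 174 and 132 (0.40), and Itga11, for a fibrillar collagen receptor subunit, at 24.5 and 18.3 (0.42). Ratios within clusters were not computed for the receptors. Between classes the receptors split: Ddr1, a collagen-activated kinase, and Itga1 were higher in mesothelial cells, by 2.34 and 1.86 in Tom+ and 2.27 and 0.61 in Tom- on the log2 scale. Itga11, Antxr2 and Antxr1 were lower, at -3.86, -2.27 and -1.97 in Tom+ and -3.96, -2.03 and -1.65 in Tom-.

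Of 5 proteases that cut collagen VI or release its fragments, all passed and 3 were higher in Tom+ stromal cells past the limit, beside 6.39% of all genes. This list was chosen with earlier results of these data known, so its count beside the share of all genes is not a test. Mmp11 was at 165 CPM in Tom+ and 99.03 in Tom- (0.73, from 0.68 to 0.78), Mmp14 at 419 and 256 (0.71, from 0.68 to 0.74) and Mmp2 at 825 and 553 (0.58, from 0.56 to 0.60). Bmp1, a procollagen protease, was at -0.07 and the proprotein convertase Furin at 0.18. Ratios within clusters were not computed for the proteases. Mmp11 was among the leading genes of cluster 2, which held 30.3% of Tom+ and 6.46% of Tom- stromal cells. The part of cluster make-up in the protease ratios was not tested. In mesothelial cells 0 of 5 were higher past the limit, and Mmp11 was lower at -0.64 (-1.13 to -0.18). Mesothelial cells had less Mmp2 than stromal cells, with log2 ratios of -4.44 in Tom+ and -3.72 in Tom-.

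Of 14 matrix partners, 11 passed, with Postn (periostin) higher and Fmod (fibromodulin) and Matn2 (matrilin 2, which binds collagen VI) lower in Tom+ stromal cells past the limit. Postn was at 440.4 CPM in Tom+ and 217 in Tom- (1.02, from 0.99 to 1.05). Fmod was at 12.9 and 32.9 (-1.35, from -1.48 to -1.22), and Matn2 at 85.3 and 127 (-0.58, from -0.63 to -0.52). The shares of all genes past the limit were 6.39% higher and 4.26% lower. Fmod and Matn4 were the partners higher in mesothelial cells, by 4.86 and 3.70 in Tom+ and 3.43 and 3.49 in Tom- on the log2 scale. Of the 8 fibrillar collagens that FACITs attach to, 6 passed and all 6 were above 0 in Tom+ stromal cells, beside 60.5% of all genes. Past the limit were 3, Col5a3 (0.72), Col3a1 (0.60) and Col5a1 (0.57), beside 6.39% of all genes. Like the matrix partners, the fibrillar collagens were listed with earlier results of these data known. Their counts beside the shares of all genes are thus not a test. The median log2 ratio of the 6 fibrillar collagens was 0.51, beside 0.07 over all genes tested, and in mesothelial cells it was -0.11. Ratios within clusters were not computed for the matrix partners or the fibrillar collagens. The part of cluster make-up in their stromal ratios was therefore not tested.

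Within the Tom+ library, stromal cells with a tdTomato UMI had less Col6a3 than those without, and tdTomato also differed between the clusters. After thinning, 535 stromal cells had a tdTomato UMI and 2609 had none. Of the 6 genes 1, Col12a1, was higher with a tdTomato UMI, by 0.36 with an interval that included 0 (-0.19 to 0.89). The share of all genes higher with one was not computed, so this count is not read as a result. Col6a3 was at 401 CPM with and 606 without, a log2 ratio of -0.59 (-0.69 to -0.50), beside a median of -0.21 over all genes. In cells that were not thinned its log2 ratio was -0.39 (-0.43 to -0.36), nearer to the median of -0.29 over all genes. The immune clusters carried tdTomato at 647 CPM in Tom+, so the split was repeated without them. In the 390 and 2573 cells left, Col6a3 was at 495 and 611 (-0.30, from -0.40 to -0.21), Col14a1 at 233 and 258 (-0.15, from -0.29 to -0.01) and Col6a1 at 996 and 1008 (-0.02, from -0.09 to 0.05), with a median of -0.02 over all genes. Col12a1 was at 16.9 and 11.2 (0.60, from 0.00 to 1.15) on 33 and 144 UMIs. After thinning, 9.38% of Tom+ cells in cluster 7 and 8.80% in cluster 2 had a tdTomato UMI, against 24.3% in cluster 1 and 57.6% in cluster 9, so cells with and without one fell unequally into clusters that differ in Col6a3. Within clusters Col6a3 was lower with a tdTomato UMI in 7 of 10, with an interval below 0 in 2, clusters 1 (-0.40, from -0.65 to -0.16) and 9 (-1.07, from -1.87 to -0.29). The value of cluster 9 rests on 19 cells with and 14 without a tdTomato UMI. The share of all genes lower in as many clusters was not computed. With the clusters weighted equally the log2 ratio of Col6a3 was -0.22, that of Col6a1 0.004 and that of Col12a1 -0.73, the last with the opposite sign to the value over all stromal cells. A cell without a tdTomato UMI may still hold tdTomato RNA, since capture is partial. In the 157 mesothelial cells with and 93 without a tdTomato UMI, Col14a1 was lower with one, at -1.09 (-2.04 to -0.16) on 19 and 24 UMIs (-0.30, from -0.77 to 0.19, without thinning), and the intervals of the other 5 included 0, with Col6a3 at -0.57 (-1.46 to 0.32), Col12a1 at -0.62 (-1.99 to 0.78), Col16a1 at -0.17, Col6a2 at -0.06 and Col6a1 at -0.01.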

How the data were processed

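Cells of 2 droplet libraries (10x Genomics Chromium 3′ kit v3.1), 1 of Tom+ and 1 of Tom- cells, were analysed. The authors deposited whole-number UMI counts per gene and barcode, made with Cell Ranger 3.0.2 on mm10, without normalization. The libraries held 61119807 and 96872394 UMIs. Cells with over 1000 and under 7000 genes and under 8% mitochondrial UMIs were kept, the filter that the study's methods name. Doublets were not called: leaving out the top 5% of cells by UMIs, or cells with markers of another type, served as alternatives. The members and gene lists were chosen with earlier results of these data known. Named genes were the 6 members, the 3 largest and 3 smallest ratios of each list, and the 5 genes most alike to each member, while clusters are described by leading genes.

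UMIs were summed per library and class and scaled to CPM. Genes with a mean under 5 CPM over the 2 sums were left out, which all 6 members passed. Limits were a log2 ratio of 0.5 between libraries and 1 between classes. Levels have exact Poisson, shares Clopper-Pearson and ratios exact conditional 95% intervals, which cover counting error only. With 1 library per group no test was made and no spread between animals can be given. Stromal cells were clustered by Leiden on 30 principal components of 2000 variable genes without collagens (resolution 0.5, 20 neighbours; scanpy 1.11.5, igraph 0.11.9). The 3 immune clusters were picked after their immunoglobulin and Ptprc levels were seen. Ratio and thinning code was tested on simulated counts. Whether strand was used in counting is not given in the sources used here. Gene coordinates are from GENCODE (GRCm38, the build of mm10).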

Additional observations from a re-analysis of the deposited data

Results flagged for a closer look

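The 3 collagen VI chains stood above 0 in stromal and below 0 in mesothelial cells in the log2 ratio of Tom+ over Tom-, with both intervals clear of 0. Col6a1 was at 0.089 in stromal and -0.21 in mesothelial cells, Col6a2 at 0.18 and -0.19, and Col6a3 at 0.75 and -0.34. Of all genes tested, 60.5% stood above 0 in stromal and 56.5% in mesothelial cells. The stromal value of Col6a1 lay near the median of 0.07 over all genes. It moved to 0.02 with median-of-ratios size factors. With each stromal cluster weighted equally the stromal log2 ratios were 0.025 for Col6a1, 0.026 for Col6a2 and 0.46 for Col6a3. The share of all genes with opposite signs in the classes and both intervals clear of 0 was not computed. Each class holds 1 library per group, so the difference between the classes was not tested. The mesothelial Col6a3 value rests on 202 Tom+ UMIs and a share of cells below that of the cells with immune UMIs. It moved to -0.11 when mesothelial cells with 3 or more UMIs of stromal genes were left out.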

How the results depend on the processing

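No paired analysis was possible because each group has 1 library: both carry the number 1, given in accession order, and 1 pair leaves no replicates. Stromal genes past the limit between the libraries (1 of 6) became 2 with median-of-ratios size factors or each cell weighted equally, where Col12a1 joined at -0.54 and -0.51, and 0 with each stromal cluster weighted equally. The mesothelial count (0 of 6) became 1 without shared barcodes. The chain ratios are given in the order Col6a2 then Col6a3 per Col6a1. Thinning gave 0.697 and 0.593 in Tom+ and 0.658 and 0.369 in Tom- stromal cells. Leaving out shared barcodes gave 0.692 and 0.597 in Tom+ stromal cells, and 0.116 for Col6a3 in Tom- mesothelial cells. Members higher with a tdTomato UMI in stromal cells (1 of 6) became 0 without thinning and 2 without the immune clusters, and in mesothelial cells (0 of 6) became 1 without thinning, where Col12a1 turned from -0.62 to 0.42. The other 61 comparisons of these main counts, shares and ratios with their alternatives stayed within 1.5 times the count or within the counting interval. The remaining values, mostly log2 ratios of single genes, were less stable. Of their comparisons 252 were classed as the same, 120 as moved and 1 as reversed. Col6a3 in stromal cells ranged from 0.46 to 0.86 over 12 alternatives and Col14a1 from 0.23 to 0.45. Leaving out the immune clusters, the cells that passed in both libraries, and shared barcodes for the chain ratios were chosen after seeing the data. At Leiden resolution 1.0 Col6a1 and Col6a2 were higher in Tom+ in 30.8% and 38.5% of 13 clusters, against 60% and 70% of 10. Equal cluster weights for the tdTomato split, where Col12a1 turned from 0.36 to -0.73, and for Col6a5, which turned from -0.28 to 0.045, and Col6a6 were also chosen after seeing the data. The Col12a1 turn leans on cluster 9, at -3.14 on 2 and 13 UMIs. The spread between animals, and so any difference between the groups beyond these 2 libraries, cannot be estimated from 1 library each.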
